A study of Mus musculus with 24 samples.

Results

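Lag3, Adgre1 and Mpeg1 are 3 genes of the myeloid cells of the mouse, the lineage of macrophages and of microglia, the resident macrophages of the brain. They were taken by symbol from a table of 54532 genes, of which 19667 had enough reads to be tested, all 3 members among them. They were chosen by their measured read counts in mice with the Q175 allele, where they were lower when Tyrobp was deleted, among genes off chromosome 7, the chromosome of Tyrobp itself. The values of that contrast are therefore given below as a description with no test.

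Reads per gene were counted in striatum from 24 C57BL/6 mice, with 1 library per animal. There were 4 genotypes of 6 animals (3 male, 3 female): WT, Tyrobp-KO, Q175 heterozygote (called Q175), and animals that are Q175 heterozygote and also Tyrobp-KO (called Q175/Tyrobp-KO). Q175 mice carry a long CAG repeat, of the kind that causes Huntington's disease, in the mouse Htt gene itself. The labels name no Cre or promoter for the Tyrobp deletion. Age is not given in the labels. Animal numbers of both genotypes with the deletion shared a letter prefix that no other animal had, so that a colony difference, if the prefix marks one, and the deletion cannot be told apart.

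Tyrobp encodes an adaptor (DAP12) that carries the signal of microglial surface receptors such as TREM2 to the kinase SYK. Lag3 encodes an inhibitory receptor related to CD4 that binds MHC class II and is best known from activated T cells, while in mouse brain its transcript is counted among those of microglia. Adgre1 encodes an adhesion G protein-coupled receptor whose antigen is the standard surface marker of mouse macrophages. Mpeg1 encodes perforin-2, a pore-forming protein of macrophage endosomes that acts on engulfed bacteria.

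Lag3 (ENSMUSG00000030124) lies on the minus strand of chromosome 6 from 124904361 to 124911705. Adgre1 (ENSMUSG00000004730) lies on the plus strand of chromosome 17 from 57358691 to 57483527. Mpeg1 (ENSMUSG00000046805) lies on the plus strand of chromosome 19 from 12460779 to 12465284. All are protein coding, the coordinates are those of the deposited table, and no other gene of the table overlaps any of them. The span of Adgre1 is 124837 bases for 3238 bases of exon, whereas that of Mpeg1 is 4506 bases for 4335, so that Mpeg1 is nearly all exon.

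RefSeq's promoter table (GRCm38.p6) held 1 of the 3 genes, Mpeg1. The 250 bases before its RefSeq start, chr19:12460520-12460769 on the plus strand, are shown because this promoter belongs to the most abundant member, and capitals mark the only match among 7 motifs searched on both strands.

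Mpeg1 upstream: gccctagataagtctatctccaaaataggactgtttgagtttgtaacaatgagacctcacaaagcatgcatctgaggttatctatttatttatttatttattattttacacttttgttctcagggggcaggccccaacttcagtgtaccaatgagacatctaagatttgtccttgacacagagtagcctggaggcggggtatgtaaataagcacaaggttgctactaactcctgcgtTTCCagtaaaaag

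The match is the core of ETS factors, GGAA, read on the minus strand at position -13 from the start. It is present in 93.4% of 32851 windows of the same length in the table. The letters GAGGAA (core of PU.1, an ETS factor of myeloid cells, which contains GGAA), GAAA followed after any NN by GAAA (IRF element), TGANTCA (AP-1), TTGCNNAA (C/EBP), CACGTG (E-box of MITF and TFEB) and TATAAA were not in this window. They were in 23.3%, 2.98%, 6.75%, 9.56%, 6.02% and 12.4% of the windows.

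Libraries held 25482686 to 34626720 counts. Tyrobp was at 6.56 to 9.89 CPM (read counts relative to library size, scaled by the TMM method) in WT and at 0.214 to 0.448 CPM in Tyrobp-KO, with 5.69 to 11.8 CPM in Q175 and 0.218 to 0.323 CPM in Q175/Tyrobp-KO, so that the deletion matched its label in each library. Markers of striatal projection neurons summed to 3323 CPM or more in each library, and the 12 microglia markers of a fixed list had reads in each genotype. Markers of neighbouring tissue varied: 5 cortical neuron genes summed to 36.4 to 597 CPM in WT, 384 to 822 in Tyrobp-KO, 12.4 to 687 in Q175 and 8.93 to 786 in Q175/Tyrobp-KO. Choroid plexus genes summed to 200 CPM or more in 5 libraries, all of them Q175 or Q175/Tyrobp-KO, with 4077 CPM in Q175 replicate 3. Titles carry animal numbers, and p-values measure the spread between these animals.

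Lag3 was the member with the clearest separation by Tyrobp genotype. Its lowest, median and highest libraries were at 5.33, 6.59 and 7.96 CPM in WT and at 3.73, 4.38 and 5.14 CPM in Tyrobp-KO. They were at 6.43, 8.55 and 8.92 CPM in Q175 and at 4.28, 4.81 and 5.23 CPM in Q175/Tyrobp-KO. Every Tyrobp-KO library lay below every WT library, as in 0.203% of all genes tested. Every Q175/Tyrobp-KO library lay below every Q175 library (0.3% of genes), but that contrast chose Lag3. The highest library without Tyrobp (5.23) was close to the lowest with it (5.33). Group means were 6.74 ± 1.02 CPM in WT, 4.40 ± 0.490 in Tyrobp-KO, 8.24 ± 0.940 in Q175 and 4.82 ± 0.378 in Q175/Tyrobp-KO (SD, n = 6 each).

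Adgre1 overlapped more. Its lowest, median and highest libraries were at 5.09, 5.54 and 6.22 CPM in WT and at 3.78, 4.40 and 5.84 CPM in Tyrobp-KO. In Q175 they were at 3.91, 6.59 and 7.74 CPM, and in Q175/Tyrobp-KO at 3.27, 3.76 and 4.82 CPM. The low Q175 value belonged to replicate 1, a male, and the other 5 Q175 libraries lay above every Q175/Tyrobp-KO library. Means were 5.61 ± 0.376, 4.65 ± 0.823, 6.30 ± 1.28 and 3.86 ± 0.589 CPM in the same order of genotypes (SD, n = 6 each).

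Mpeg1 was highest in Q175, whose libraries served to choose the members. Its lowest, median and highest libraries were at 30.7, 36.8 and 41.1 CPM in WT, 28.8, 33.9 and 40.5 CPM in Tyrobp-KO, 42.7, 43.8 and 48.6 CPM in Q175, and 32.2, 33.8 and 40.5 CPM in Q175/Tyrobp-KO. Every Q175 library lay above every Q175/Tyrobp-KO library, a separation that the choice of members favours. Every Q175 library also lay above every WT library, as in 1.69% of all genes tested. The other genotypes overlapped one another. Means were 36.7 ± 3.46, 34.3 ± 4.003, 44.8 ± 2.39 and 34.9 ± 3.33 CPM (SD, n = 6 each).

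**Figure D1:**
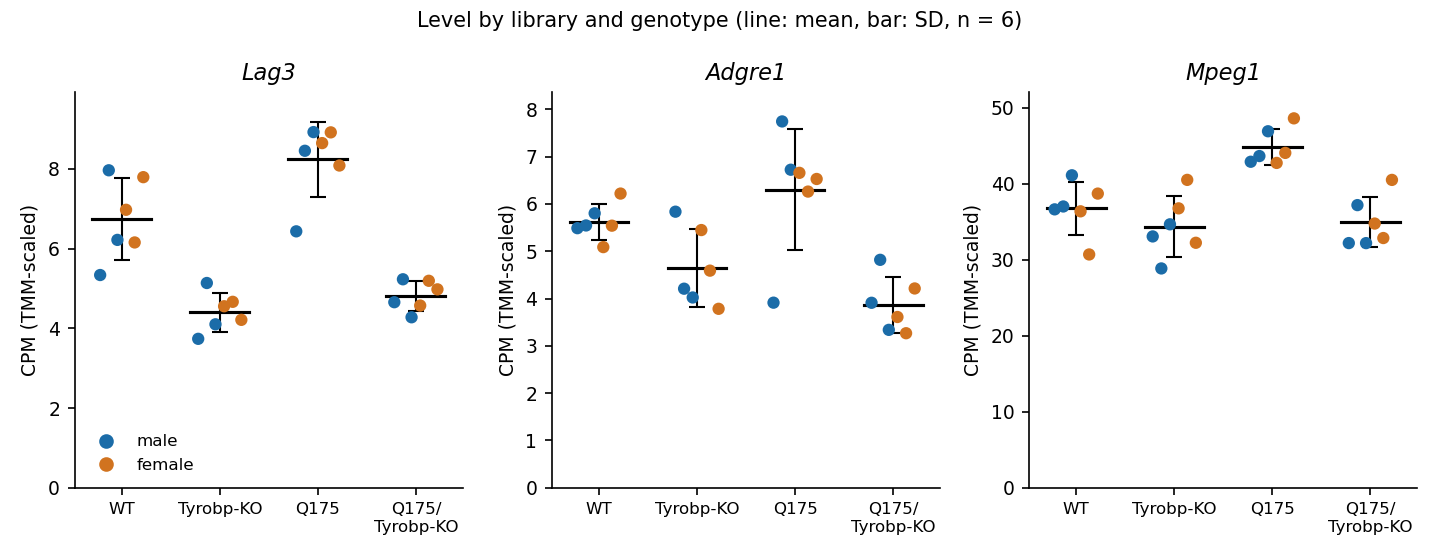
Level of each member in each library, in TMM-scaled CPM from 0, by genotype; points are animals coloured by sex, lines are means and bars are SD (n = 6). Lag3 is lower in all 6 Tyrobp-KO libraries than in any WT library, and Adgre1 overlaps between genotypes. Mpeg1 is highest in the 6 Q175 libraries, which served to choose the members.

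Ordered by mean, Lag3 rose from Tyrobp-KO through Q175/Tyrobp-KO and WT to Q175. The step between the 2 lowest genotypes, 0.416 CPM, was smaller than their pooled SD of 0.438, and those from Q175/Tyrobp-KO to WT (1.92 CPM, pooled SD 0.772) and from WT to Q175 (1.502 CPM, pooled SD 0.983) were larger. The order of Adgre1 was Q175/Tyrobp-KO, Tyrobp-KO, WT and Q175, with its last step (0.691 CPM) inside the pooled SD of 0.941. In Mpeg1 the order was that of Lag3, but Tyrobp-KO, Q175/Tyrobp-KO and WT followed one another by 0.601 and 1.80 CPM against pooled SDs of 3.68 and 3.39. The step from WT to Q175 was 8.05 CPM, against a pooled SD of 2.97.

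Per kilobase of exon, Mpeg1 had the highest level of the 3 genes in WT, at 8.48 ± 0.797 CPM per kilobase. Lag3 was at 3.19 ± 0.485 and Adgre1 at 1.73 ± 0.116 CPM per kilobase (SD, n = 6). The values rest on 106 to 268 reads per library for Lag3, 89 to 219 for Adgre1 and 809 to 1409 for Mpeg1. Counting alone gives an error of 9.71% at the lowest Lag3 library, 10.6% at the lowest Adgre1 library and 3.52% at the lowest Mpeg1 library. The spread over the 6 WT animals was 15.2% of the mean for Lag3, 6.69% for Adgre1 and 9.40% for Mpeg1. None of those lowest libraries was WT, so the 2 sets of values are not matched. WT libraries held 135 to 198 reads of Adgre1. Counting error is 6.76% even at its highest library (219 reads), so the WT spread of Adgre1 was no larger than counting error.

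The contrast of Tyrobp-KO with WT compares none of the libraries whose difference chose the members, and asks whether loss of Tyrobp changes them without the Q175 allele. Its fold changes compare the 12 libraries of these genotypes, but the sex term and the spread behind its SE and p were estimated over all 24, so the p draws in part on the libraries that chose the members. Lag3 fell: all 6 Tyrobp-KO libraries were below all 6 WT libraries, and the log2 fold change was -0.62 ± 0.11 (SE), or -34.7% with a 95% interval of -44.4% to -23.4% (adjusted p 0.00980 in the quasi-likelihood test of edgeR). Adgre1 was at -0.27 ± 0.14 (-17.1%, 95% interval -32.3% to 1.44%; edgeR adjusted p 0.749), with 5 of 6 Tyrobp-KO libraries below the WT median. Mpeg1 was at -0.10 ± 0.08 (-6.69%, 95% interval -16.2% to 3.91%; edgeR adjusted p 0.798), also with 5 of 6 libraries below the WT median. The Mpeg1 value was -0.06 without Tyrobp-KO replicate 2 or WT replicate 3 and -0.16 without Tyrobp-KO replicate 5 or WT replicate 5. In females alone it was 0.05, and over the remaining alternative fits it ran from -0.25 to -0.06. So 1 of the 3 members passed the test, and the intervals of the other 2 reach from a fall to slightly above no change. Over all genes tested, 0.117% were called in this contrast in either direction and 0.0712% as lower. Off chromosome 7 the share called lower was 0.00553%, which is Lag3 alone of 18098 genes. Lower without overlap between the groups were 0.203% of genes.

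When only the 12 WT and Tyrobp-KO libraries entered the fit, which then drew on no library that chose the members, Lag3 was not called: the log2 fold change was -0.62 ± 0.13 with an edgeR adjusted p of 0.118. With fewer animals it was -0.59 in males alone and -0.64 in females alone, with edgeR adjusted p of 0.177 and 0.688. Over all 24 libraries the call also held with DESeq2 (adjusted p 0.000139) and with limma-voom (adjusted p 0.0124). The summed cortical markers averaged 606 CPM in Tyrobp-KO and 344 CPM in WT, with overlapping ranges and none of the 5 genes called. With their sum as a covariate, an alternative chosen after seeing the data, Lag3 was at -0.60 ± 0.12 (edgeR adjusted p 0.0210). All 10 markers of striatal projection neurons were also below 0 in Tyrobp-KO against WT, with a median log2 fold change of -0.30. None of them was called (smallest edgeR adjusted p 0.749). Their sum averaged 6502 CPM in Tyrobp-KO and 7928 CPM in WT, with overlapping ranges. The part of this shift in the Lag3 result was not tested.

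In Q175/Tyrobp-KO against Q175, the contrast that chose the members, Lag3 was lower by a log2 fold change of -0.77 ± 0.11 (SE), Adgre1 by -0.71 ± 0.14 and Mpeg1 by -0.36 ± 0.08. The groups did not overlap for Lag3 and Mpeg1. These values are descriptions: 0.112% of all genes were called lower here, 0.3% were lower without overlap, and the members are among them by choice. Of the 9 genes lower off chromosome 7 at an adjusted p under 0.05 (0.0497%), Adgre1 and Mpeg1 lay just inside that threshold. Just outside it were Sp7, a transcription factor of bone cells (-0.68 ± 0.15), and Ctss, which encodes the lysosomal protease cathepsin S (-0.42 ± 0.09).

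Set beside each other, the deletion values without and with the Q175 allele were -0.62 and -0.77 for Lag3, -0.27 and -0.71 for Adgre1, and -0.10 and -0.36 for Mpeg1. The second of each pair was selected for being low, so the difference between them was not tested. Without Q175 replicate 1, the low library of Adgre1, its value with the Q175 allele was -0.82 ± 0.13. Without the 5 libraries high in choroid plexus markers, which belong to both genotypes with that allele, the values were -0.73 ± 0.16 for Lag3, -0.82 ± 0.20 for Adgre1 and -0.45 ± 0.10 for Mpeg1.

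Q175 against WT uses the Q175 libraries that served to choose the members, and members chosen as high in those libraries tend to lie high in this contrast as well, so no test is given. In this contrast 9.63% of all genes were called. The log2 fold change was 0.29 ± 0.11 for Lag3, 0.17 ± 0.14 for Adgre1 and 0.28 ± 0.08 for Mpeg1 (SE). Of the 6 Q175 libraries, 5 lay above the highest WT library for Lag3, 5 for Adgre1 and 6 for Mpeg1, while 1.69% of all genes were higher in Q175 without overlap. The value of Adgre1 was 0.28 ± 0.12 without Q175 replicate 1 and 0.10 ± 0.15 without Q175 replicate 2. Without the libraries high in choroid plexus markers, the values were 0.23 ± 0.13 for Lag3, 0.15 ± 0.16 for Adgre1 and 0.27 ± 0.08 for Mpeg1. WT replicate 3, the only WT animal with the number prefix of the Q175 animals, was the highest WT library for Mpeg1 (41.1 CPM), and without it the Mpeg1 value was 0.33 ± 0.08. In the same contrast all 10 markers of striatal projection neurons were below 0 and 9 were called lower by edgeR, with a median log2 fold change of -0.75. Their part in the relative levels of the members was not tested.

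Q175/Tyrobp-KO against Tyrobp-KO shares the Q175/Tyrobp-KO libraries with the contrast that chose the members. Here Lag3 was at 0.13 ± 0.11 (0.20 ± 0.12 without Tyrobp-KO replicate 2), Adgre1 at -0.27 ± 0.14 and Mpeg1 at 0.03 ± 0.08 (SE). Over the alternatives other than leaving out a single library, Adgre1 was at -0.41 to -0.22. The values of all 3 members were lower than in Q175 against WT, and that of Adgre1 was below 0. The choice of members by high Q175 and low Q175/Tyrobp-KO libraries favours this direction, so the difference was not tested. The Mpeg1 value was -0.01 without Tyrobp-KO replicate 2 and -0.02 without Q175/Tyrobp-KO replicate 6, and its sign also turned in females alone (-0.02), with cortical markers as covariate (-0.02 ± 0.07) and without the 5 libraries high in choroid plexus markers (-0.08 ± 0.09).

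**Figure D2:**
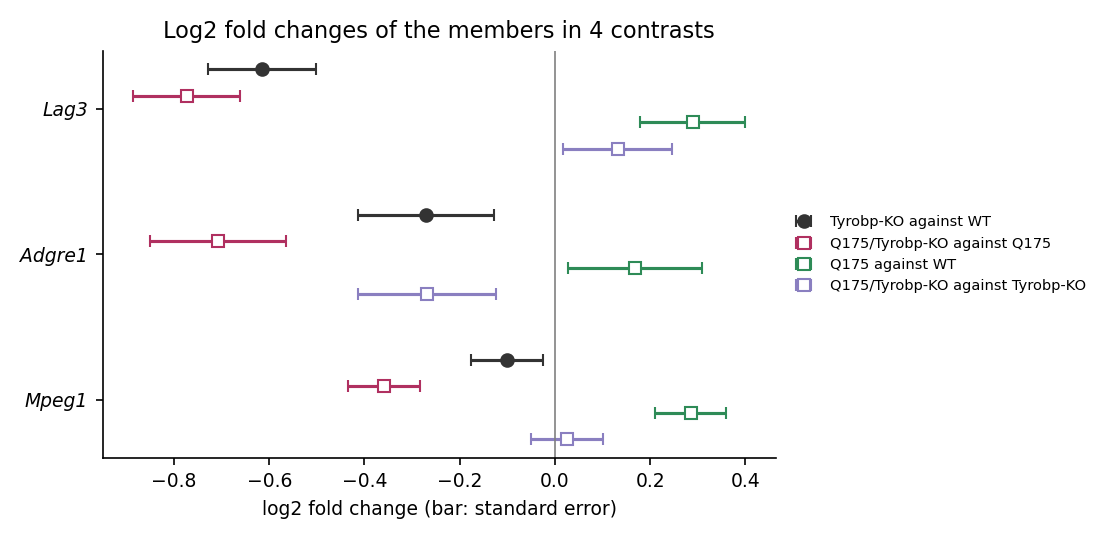
Log2 fold change of each member (x axis) in 4 genotype contrasts, with standard errors as bars; the filled circle compares genotypes that did not serve to choose the members, with a spread estimated over all 24 libraries, and open squares compare genotypes that did. Both deletion contrasts lie below 0 for each gene, and Lag3 is at -0.62 without the Q175 allele.

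Sex is balanced within each genotype and did not enter the choice of members. Females against males were at a log2 fold change of 0.08 ± 0.08 for Lag3, -0.02 ± 0.10 for Adgre1 and 0.04 ± 0.05 for Mpeg1 (SE; edgeR adjusted p 0.999 for each), where 0.0814% of genes were called. The 95% intervals were -0.08 to 0.24, -0.22 to 0.19 and -0.07 to 0.15. The deletion effect without the Q175 allele differed between the sexes by 0.30 ± 0.15 for Mpeg1 (unadjusted p 0.0542 in edgeR's test, adjusted p 0.634). In males Mpeg1 was at 38.2 ± 2.49 CPM in WT and 32.2 ± 2.999 in Tyrobp-KO (SD, n = 3), and in females at 35.2 ± 4.12 and 36.5 ± 4.14. Differences between the sexes were -0.05 ± 0.24 for Lag3 and -0.03 ± 0.30 for Adgre1 (edgeR adjusted p 0.976 and 0.988). The share of genes called for this difference was 0%, with 1558 genes at an unadjusted p under 0.05 in edgeR's test.

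In bulk tissue, fewer cells of a type and less RNA per cell cannot be told apart, so the members were also set against microglia markers. The 12 markers, among them P2ry12, Tmem119, Cx3cr1 and Csf1r, summed to 369 to 433 CPM in WT, 310 to 429 in Tyrobp-KO, 382 to 438 in Q175 and 339 to 399 in Q175/Tyrobp-KO. None of the 12 was called by edgeR in Tyrobp-KO against WT (smallest adjusted p 0.749) or in Q175/Tyrobp-KO against Q175, although all 12 were below 0 in either contrast. Their median log2 fold change was -0.09 and -0.23, against 0.00 over all genes tested in both.

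The level of Lag3 relative to the markers, its log2 CPM minus the mean log2 CPM of the 12, was -2.29 ± 0.262 in Tyrobp-KO and -1.82 ± 0.181 in WT (SD, n = 6), a difference of -0.468. A 2-sided exact permutation test over the 924 splits gave p 0.0108, or 0.0325 adjusted over the 3 members. Of the Tyrobp-KO libraries, 5 of 6 were below the lowest WT library (-2.05), and the exception was Tyrobp-KO replicate 2, at -1.77, which had the lowest summed markers (310 CPM). Adgre1 differed by -0.172 (exact permutation p 0.126, adjusted 0.188) and Mpeg1 by -0.0105 (exact permutation p 0.864, adjusted 0.864). The adjusted p of Lag3 rose above 0.05, to between 0.0519 and 0.0649 in the exact permutation test, without WT replicate 2 or without Tyrobp-KO replicate 1, 3, 4, 5 or 6.

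With the Q175 allele, where the choice of members fixes the direction, the differences between Q175/Tyrobp-KO and Q175 on the same relative scale were -0.498 for Lag3, -0.413 for Adgre1 and -0.143 for Mpeg1. For Lag3 the relative level of every Q175/Tyrobp-KO library (-2.21 to -1.94) lay below every Q175 library (-1.75 to -1.44). For Mpeg1 the ranges, 0.562 to 0.718 and 0.647 to 0.896, overlapped, whereas its CPM ranges did not.

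**Figure D3:**
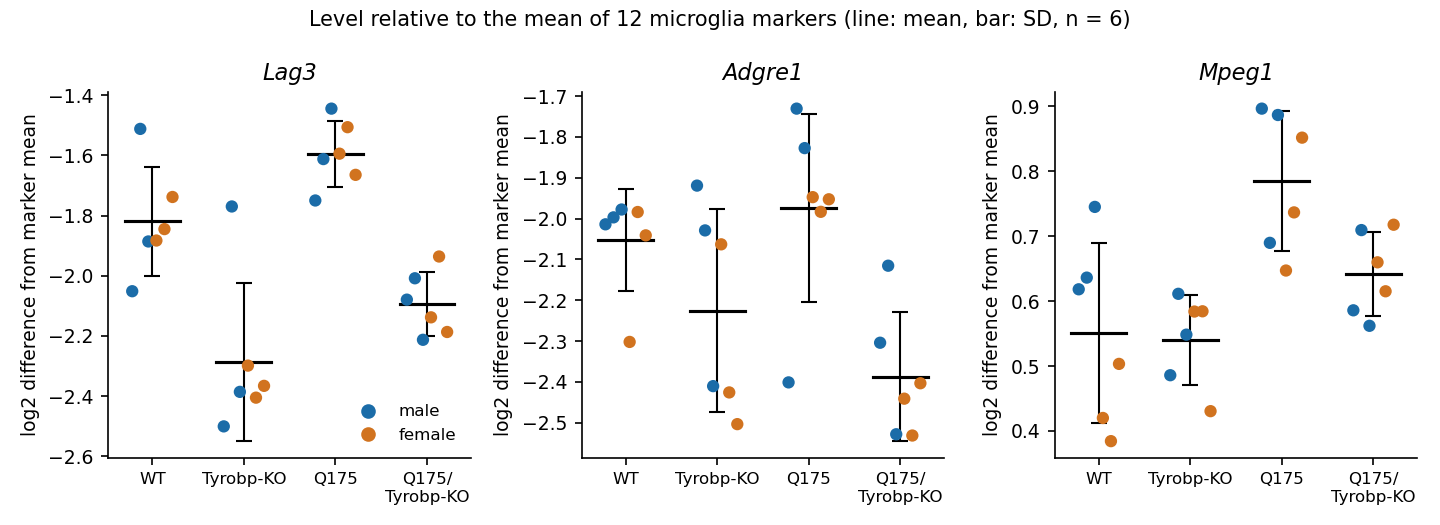
Log2 CPM of each member minus the mean log2 CPM of 12 microglia markers (y axis) by genotype; points are animals coloured by sex, lines are means and bars are SD (n = 6). Lag3 is lower in 5 of 6 Tyrobp-KO libraries than in any WT library, and Mpeg1 overlaps between WT and Tyrobp-KO.

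The other cells in which these genes are known were looked for by their markers. Of 10 T cell genes 4 passed the filter, and Cd3e, a defining chain of the T cell receptor complex, had 24 reads in all 24 libraries together, Cd3g 8 and Cd3d 4. The T cell list summed to 3.62 to 9.80 CPM in WT and 5.76 to 13.5 in Tyrobp-KO, most of it Trbc2 (4.49 and 7.52 CPM on average). Cd3d, Cd3g and Cd8b1 were at 0 in Tyrobp-KO. None of the NK and B cell genes passed the filter. The 8 monocyte and neutrophil genes summed to 0.180 to 0.817 CPM in WT, 0.110 to 0.858 in Tyrobp-KO, 0.488 to 2.35 in Q175 and 0.346 to 1.37 in Q175/Tyrobp-KO, with Ly6g at 0 in all 4 genotypes. Their only tested gene, S100a9, was not called in either deletion contrast (edgeR adjusted p 0.969 and 0.843) and was higher in Q175 than in WT (2.49 ± 0.73, edgeR adjusted p 0.0284), and its part in the members' levels there was not tested. Border macrophage genes, which mark the macrophages of meninges and vessels, summed to 29.5 to 37.8 CPM in WT and 23.9 to 33.3 in Tyrobp-KO, with 4 of 8 tested and none called in either deletion contrast (smallest edgeR adjusted p 0.749 and 0.850). The part of border macrophages in the Lag3 result was not tested.

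Within genotypes, the members did not form a tight group. Correlations were taken over the 24 libraries on log2 CPM after genotype and sex means were removed. Pearson's r was 0.375 for Lag3 and Adgre1 (permutation p 0.0692, adjusted over 3 pairs 0.144; Spearman's rho 0.319, permutation p 0.127, adjusted 0.191), and r was 0.197 without the 2 libraries farthest from the median of Lag3. For Lag3 and Mpeg1, r was 0.121 (permutation p 0.574, adjusted 0.574; rho 0.185, permutation p 0.383, adjusted 0.383), and 0.0832 without the 2 farthest libraries. For Adgre1 and Mpeg1, r was 0.349 (permutation p 0.0957, adjusted 0.144; rho 0.534, permutation p 0.00819, adjusted 0.0246), and 0.447 without the 2 farthest libraries. For this last pair r was -0.0299 (permutation p adjusted 0.890) once the mean of the microglia markers was subtracted from both genes.

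Mpeg1 followed the microglia markers from animal to animal and Lag3 did not detectably. Against the residual of the marker mean, r was 0.707 for Mpeg1 (permutation p 0.00017, adjusted over 3 relations 0.00051; rho 0.673, permutation p 0.00037, adjusted 0.00111). It was 0.516 for Adgre1 (permutation p 0.0113, adjusted 0.0170; rho 0.557, permutation p 0.00517, adjusted 0.00775) and 0.0651 for Lag3 (permutation p 0.762, adjusted 0.762; rho 0.219, permutation p 0.299, adjusted 0.299). Without the 2 libraries farthest from the median of the markers, r was 0.537 for Mpeg1, 0.617 for Adgre1 and 0.332 for Lag3. The differences between these correlations were not tested. Taken singly, 12 of the 12 markers had r above 0 with Mpeg1 (median 0.459), 11 with Adgre1 (median 0.313) and 6 with Lag3 (median 0.00).

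**Figure D4:**
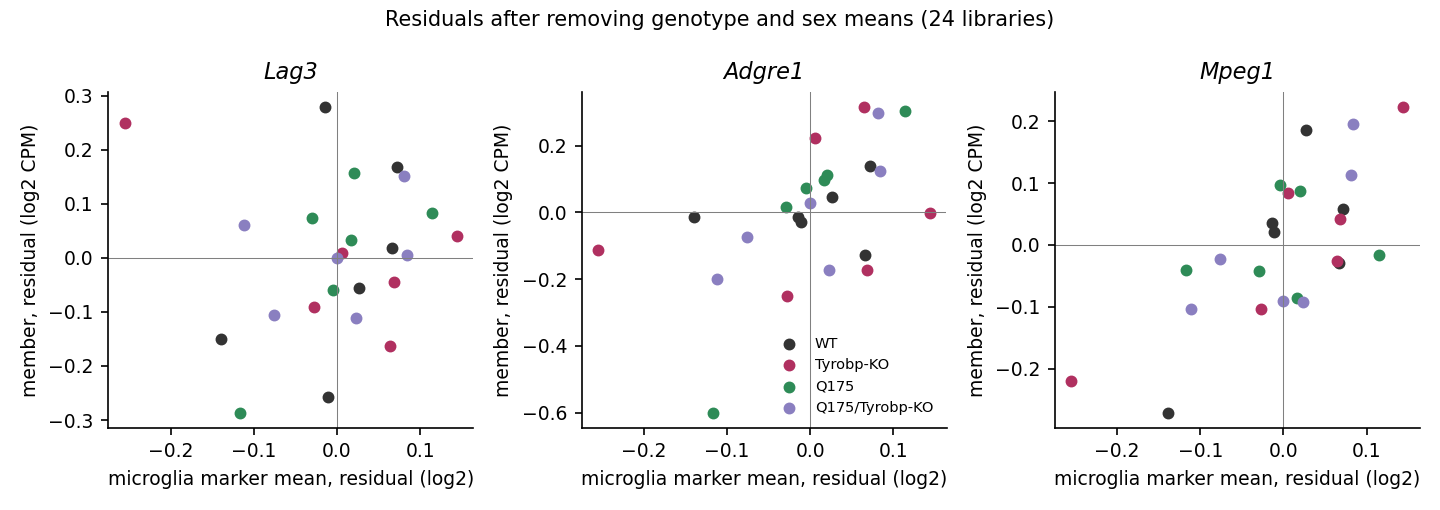
Residual log2 CPM of each member (y axis) against the residual mean of 12 microglia markers (x axis) after removing genotype and sex means; each point is 1 of 24 libraries, coloured by genotype. Points of Mpeg1 climb from left to right (r 0.707), those of Lag3 show no trend (r 0.0651), and Q175 replicate 1 is the low point of Adgre1.

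Among the 19666 other genes tested, those with the residual pattern most like Lag3 over the 24 libraries were Il18bp (r 0.766), which encodes a secreted inhibitor of interleukin 18, C330011M18Rik (0.753) and Gm26594 (0.706). For Adgre1 they were Cd52 (0.793), which encodes a small surface glycoprotein of leukocytes, Gm28424 (0.785) and Pm20d1 (0.761). For Mpeg1 they were Palmd (0.892), Kcne1l (0.883) and Ankrd13a (0.841). These are the highest of 19666 values for each member and are given as descriptions. Of the 12 microglia markers, whose r with Mpeg1 ran from 0.103 to 0.776, the highest was that of Csf1r, the receptor for a growth factor on which microglia depend (r with Lag3 0.176).

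None of the 6 tested genes next to the members on the chromosome was called in either deletion contrast. Cd4, 16140 bases from Lag3 and related to it, was at 78.7 ± 13.5 CPM in WT and 65.2 ± 19.2 in Tyrobp-KO (-0.28 ± 0.18, edgeR adjusted p 0.764). Ptms, 1976 bases away on the other side, was at 0.00 ± 0.08 (edgeR adjusted p 0.996). Beside Adgre1, Vav1, which encodes an exchange factor of blood cells, was at -0.21 ± 0.13 and Cntnap5c at -0.48 ± 0.13 (edgeR adjusted p 0.754 and 0.530). Beside Mpeg1, Osbp was at -0.06 ± 0.04 and Dtx4 at 0.27 ± 0.18 (edgeR adjusted p 0.790 and 0.769). In Q175/Tyrobp-KO against Q175 the edgeR adjusted p of the 6 neighbours was 0.843 to 0.965. Dtx4 lies 1057 bases beyond Mpeg1 on the opposite strand, and strand use in counting was not stated.

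Genes that act with the members or belong to their families showed no call in either deletion contrast, where 0.117% and 0.158% of all genes were called. Of 9 genes for LAG3 ligands and for the proteases that shed LAG3, 8 were tested, with a median log2 fold change of -0.04 in Tyrobp-KO against WT. H2-Aa, a chain of MHC class II, was at 0.469 ± 0.432 CPM in WT and 0.207 ± 0.149 in Tyrobp-KO (-1.13 ± 0.77, edgeR adjusted p 0.774), and Adam10, a protease that sheds LAG3, was at 0.06 ± 0.05 (edgeR adjusted p 0.823). Of 15 other checkpoint receptors and ligands 10 were tested (median 0.04), with Cd200, a ligand that restrains microglia, at 0.17 ± 0.07 and Sirpa, the receptor for CD47, at 0.08 ± 0.05 (edgeR adjusted p 0.749 and 0.760).

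Of 28 other adhesion G protein-coupled receptors 23 were tested (median 0.03). Adgre5, which encodes CD97, was at -0.23 ± 0.11, and Adgrl3, a latrophilin of neurons, was at -0.18 ± 0.07 (edgeR adjusted p 0.749 for both). Adgre4, the other near relative of Adgre1 listed, had 64 reads in all libraries and was not tested. Of 11 other proteins with the perforin domain of Mpeg1 6 were tested (median 0.16), and Prf1, the perforin of lymphocytes, had 8 reads in all and was not. C7, a component of the complement pore, was at 0.55 ± 0.34 and Brinp2 at 0.21 ± 0.14 (edgeR adjusted p 0.760 and 0.769). Of 12 transcription factors of myeloid cells 11 were tested (median 0.02). Irf8, a factor that microglia need, was at 9.75 ± 1.21 CPM in WT and 7.56 ± 1.39 in Tyrobp-KO (-0.37 ± 0.12, edgeR adjusted p 0.749), and Cebpb, a factor of inflammatory gene expression, was at 0.35 ± 0.18 (edgeR adjusted p 0.749).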

How the data were processed

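Per the labels' protocols, RNA was extracted with Trizol from the striatum of a single hemisphere and sequenced on an Illumina platform by a commercial provider. The authors deposited raw read counts per gene. The submitters' processing notes name STAR, featureCounts and DESeq2, without versions, and the build as GRCh38, a human build. The identifiers are those of mouse genes, and 54495 of 54532 were in GENCODE M21 on GRCm38 (98.3% of these with the same start and end). The use of strand in counting is not given in the sources used here.

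Counts were fitted with edgeR 4.0.16 in R 4.3.3 (TMM, filterByExpr, robust quasi-likelihood fit), with 1 coefficient for each genotype and 1 for sex, over all 24 libraries. Calls needed an adjusted p (Benjamini-Hochberg, 19667 genes) under 0.05. SE are the log2 fold change over the square root of edgeR's F, CPM are TMM-scaled, and log2 CPM used for relative levels and correlations had 0.5 CPM added. Correlations used 100000 permutations. The scripts were tested on simulated data. Alternatives were DESeq2 1.42.0, limma-voom (limma 3.58.1), RLE scaling, no filter, no sex term, fewer libraries and each library left out. Of the 60 pairs of libraries of a genotype, none agreed within sampling noise (mean chi-square per gene 6.89 to 42.6). Replicate numbers only name libraries.

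The members and lists were chosen with earlier results of these data known. Genes were named by a rule: the members, Tyrobp, nearest tested neighbours, the 2 genes of smallest p in Tyrobp-KO against WT and all called genes of each related list, the 3 genes most correlated with each member, and 2 genes on either side of the threshold. Cd3e, Cd3g, Cd3d, Trbc2, Adgre4, Prf1, S100a9, Ly6g, Csf1r and the genes of the closing observations were named after their values were seen.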

Additional observations from a re-analysis of the deposited data

Results flagged for a closer look

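Lag3 in Q175 replicate 1, at 6.43 CPM, lay far below the other 5 Q175 libraries, which were at 8.08 to 8.92 CPM. The gap to the nearest library was 0.663 of the range of the group, and it was the only one of 12 combinations of member and genotype past Dixon's 95% limit for this share, which chance alone passes in about 5% of groups. The same library was also far below the rest for Adgre1 (3.91 CPM, with the next at 6.26), though not past that limit. It had the lowest summed microglia markers of the Q175 group (382 CPM), the lowest striatal neuron markers (3877 CPM) and the highest cortical neuron markers (687 CPM). The part of these in its Lag3 level was not tested.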

How the results depend on the processing

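No paired analysis was possible because the labels give animal numbers and no replicate numbers shared between genotypes. The fall of Lag3 in Tyrobp-KO against WT was not called with only the 12 libraries compared (-0.62), in males only (-0.59) or in females only (-0.64); leaving out each library in turn gave -0.68 to -0.55, called each time in edgeR's test. Its fall relative to microglia markers was -0.572 to -0.407 with each library left out. Signs turned for values near 0: Mpeg1 in Tyrobp-KO against WT in females only (0.0455), Mpeg1 relative to Csf1r alone (0.0029; -0.0438 to 0.0283 with a library left out), Mpeg1 in Q175/Tyrobp-KO against Tyrobp-KO in females only (-0.0179), with cortical markers as covariate (-0.0200) and without libraries high in choroid plexus markers (-0.0760; -0.0185 to 0.0851 with a library left out), and Adgre1 in females against males with limma-voom (0.0027) and without those libraries (0.00937; -0.0732 to 0.0215 with a library left out). The sex difference of the deletion effect ranged over -0.216 to 0.0971 for Lag3 and -0.158 to 0.162 for Adgre1 with a library left out. The correlation of Adgre1 and Mpeg1 was -0.0299 after subtracting the marker mean; with a library left out those of Lag3 with Adgre1 and Mpeg1 were 0.0815 to 0.526 and -0.00918 to 0.355, and that of Lag3 and Adgre1 passed the permutation test without Tyrobp-KO replicate 1 (adjusted p 0.0316). Calls in Tyrobp-KO against WT numbered 23, with 65 in males only and 8 in females only. In Q175/Tyrobp-KO against Q175 they numbered 31, with 52 by DESeq2, 11 in males only, 11 in females only and 9 without libraries high in choroid plexus markers. The causes of these changes were not tested, and some of the fits held fewer libraries. Of the other values, 739 were put down as the same, numbers of called genes among them. Apart from those numbers, these values kept their direction and, where a test was made, their side of the threshold. The covariate and the choroid plexus limit were chosen after seeing the data. At 89 to 268 reads per library, counting error limits what can be seen for Lag3 and Adgre1.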

Other observations

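Few genes related to the members were called in Q175 against WT, a contrast in which 9.63% of all genes were called: 1 of 8 tested for LAG3 ligands and proteases, 1 of 10 other checkpoint genes, 2 of 23 adhesion receptors, 0 of 6 perforin domain proteins (smallest edgeR adjusted p 0.118) and 1 of 11 myeloid transcription factors. These shares are near the background, and the genes are given as values only. Lgals3, which encodes galectin-3, a ligand of LAG3 and a gene of activated microglia, rose: its mean was 0.293 ± 0.140 CPM over the WT libraries and 0.970 ± 0.375 CPM over those of Q175 (log2 fold change 1.72 ± 0.39, edgeR adjusted p 0.00431). Cd200 rose as well, with 45.7 ± 1.90 CPM in WT and 65.8 ± 8.09 in Q175 (SD, n = 6; 0.53 ± 0.07, edgeR adjusted p 7.02e-06). Of the 23 adhesion G protein-coupled receptors tested, Adgrb2 (-0.24 ± 0.06) and Adgra2 (-0.39 ± 0.10) fell (edgeR adjusted p 0.0106 and 0.0143), and of the 11 myeloid transcription factors Cebpa did (-0.31 ± 0.09, edgeR adjusted p 0.0302).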
